A study of Mus musculus with 10 samples.

Results

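The genes described here encode 9 enzymes that take methyl groups off the histone H3 lysines known as H3K4, H3K27 and H3K36. They were chosen by name, and all 9 have a row among the 13578 genes of the table. Kdm1a and Kdm1b encode amine oxidases, and Kdm2a, Kdm2b, Kdm5a, Kdm5b, Kdm5c, Kdm6a and Kdm6b encode JmjC enzymes. The gonads of female mouse embryos were taken at embryonic day 13.5, 1 embryo a sample, and RNA of their sorted Oct4- somatic cells was sequenced. In 5 embryos vitamin C had been withdrawn during early gestation, and in 5 embryos it had been supplied. All 10 embryos were Gulo-/- on a C57BL/6 background, so both groups lacked the last enzyme of vitamin C synthesis and depended on the diet. The comparison asks whether gene expression in the gonadal soma responds to the loss of vitamin C.

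Amine oxidase demethylases oxidise the methylated lysine with a flavin cofactor and do not use vitamin C. JmjC demethylases hydroxylate the methyl group with ferrous iron, oxygen and alpha-ketoglutarate, and vitamin C helps to keep such iron in its active form. That biochemistry concerns the activity of the enzymes, whereas the values below are the amounts of their transcripts.

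Expression is given as regularised log2 (rlog) values, a scale on which differences of low genes are shrunk the most. Values after ± are SDs over the 5 embryos of a group (n = 5). Sample medians ran from 9.12 to 9.14 in withdrawn and from 9.12 to 9.13 in supplied embryos. Depth is unknown, because rlog values do not hold it, and counting error could not be given. The table has no row for Gulo, which was not analysed here. All 8 gonadal somatic markers had a row, and their mean level was 11.58 ± 0.0513 in withdrawn and 11.60 ± 0.0804 in supplied embryos. Of 11 germ cell markers 4 had a row (Dnd1, Nanos3, Tfap2c and Tdrd1), the sorted factor Pou5f1 (Oct4) had none, and their mean of 4.91 ± 0.0361 in withdrawn and 4.95 ± 0.0213 in supplied embryos lay near the lowest value of the table, 4.04. Tdrd1 alone stood apart among them, at 5.77 ± 0.0456 in withdrawn and 5.96 ± 0.0930 in supplied embryos (change -0.20, limma unadjusted p = 0.000136, adjusted p = 0.167). None of the markers of other cell types passed the test, but several had an unadjusted limma p under 0.05, as had 5.3% of all genes. Of 6 stromal markers 5 had a change above 0 and 3 such a p, and their mean was 13.67 to 13.83 in withdrawn and 13.47 to 13.69 in supplied embryos. Summed on the linear scale they ran from 156447 to 178760 in withdrawn and from 131956 to 162871 in supplied embryos. The highest genes weigh most in that sum, foremost Col3a1 at 15.99 over all embryos. It therefore does not stand for all 6 markers alike. Endothelial markers had 7 of 8 changes below 0, erythroid markers 5 of 7 and macrophage markers 6 of 7, and their means were 9.54 ± 0.0584, 9.72 ± 0.270 and 7.35 ± 0.100 in withdrawn embryos against 9.62 ± 0.0838, 9.78 ± 0.341 and 7.44 ± 0.116 in supplied embryos. Such a p was found for the endothelial marker Eng (change -0.39, limma unadjusted p = 0.000209, adjusted p = 0.210), for the macrophage markers Itgam (-0.22) and Lyz2 (-0.30), and for 0 of 7 erythroid and 0 of 8 gonadal somatic markers. The part of all these markers in the demethylase values was not tested. In these bulk samples fewer cells of a type and less RNA per cell cannot be told apart.

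None of the 9 demethylase genes passed the test for a difference between withdrawn and supplied embryos (limma adjusted p between 0.963 and 0.999), where 0.0221% of all genes passed it. At an unadjusted limma p under 0.05 the count was also 0 of 9, against 5.3% of all genes. The changes, withdrawn minus supplied, ran from -0.050 for Kdm2b to 0.071 for Kdm1b on the rlog scale, and the middle 90% of all genes lay between -0.088 and 0.087. The 95% intervals reached at most 0.178 from 0, which was the upper end for Kdm5b and is 1.13-fold on the rlog scale. In 0 of 9 genes did all embryos of one group lie above all of the other, as happened in 0.81% of all genes. Kdm1b, Kdm5b, Kdm5c, Kdm5a, Kdm6b and Kdm2a were above 0, although Kdm5a, Kdm6b and Kdm2a lay below 0 with quantile normalization. Over all genes 50.2% were above 0.

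**Figure D1:**
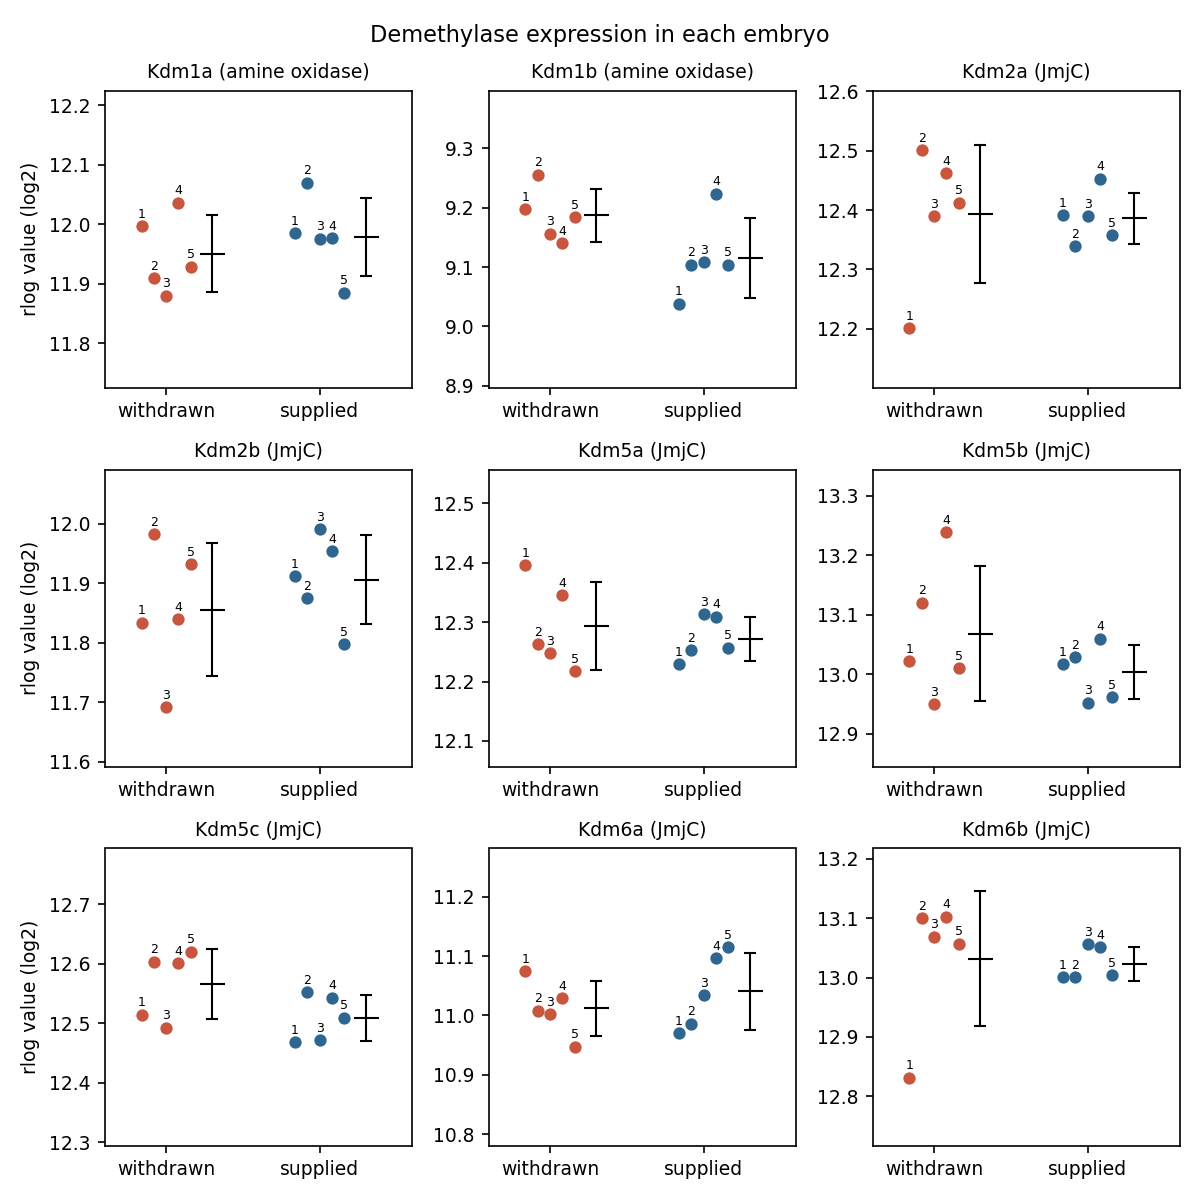
Each panel plots the rlog value (log2) of 1 demethylase gene in 5 withdrawn and 5 supplied embryos, numbered by replicate, with the mean and SD of each group beside them and a vertical axis of the same length in every panel. The groups overlap in all 9 panels, and withdrawn embryo 1 lies lowest for Kdm6b at 12.83 and for Kdm2a at 12.20.

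Kdm1a encodes an H3K4 demethylase that works with the CoREST repressor complex. Its rlog values were 11.997, 11.91, 11.88, 12.04 and 11.93 in withdrawn embryos, against 11.99, 12.07, 11.98, 11.98 and 11.89 in supplied embryos. The lowest value was that of a withdrawn embryo and the highest that of a supplied one, and the groups overlapped over nearly their whole range. The change was -0.028 (SE 0.0461, 95% interval from -0.126 to 0.069), and -0.0054 without supplied embryo 2.

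Kdm1b encodes the second amine oxidase, which in the mouse is known for its role in oocytes, where it is needed to set up maternal DNA methylation imprints. Its rlog values were 9.20, 9.26, 9.16, 9.14 and 9.18 in withdrawn embryos, against 9.04, 9.10, 9.11, 9.22 and 9.10 in supplied embryos. All 5 withdrawn embryos lay above the supplied mean of 9.12, but supplied embryo 4 stood above 4 of them. The change of 0.071 (SE 0.0450, 95% interval from -0.024 to 0.166) had the smallest p of the 9 genes (limma unadjusted p = 0.133, adjusted p = 0.963). Kdm1b shares 505 exon bases with Dek on the opposite strand, and strand use in the counting is not stated. Its value is therefore uncertain, since Dek had a level of 13.06 and a change of -0.061.

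The KDM5 enzymes remove methyl groups from trimethylated H3K4, the mark of active promoters. Kdm5a had rlog values of 12.40, 12.26, 12.25, 12.35 and 12.22 in withdrawn embryos and 12.23, 12.25, 12.31, 12.31 and 12.26 in supplied embryos, a change of 0.022 (SE 0.0446). Withdrawn embryos 1 and 4 held the highest values and withdrawn embryo 5 the lowest. Kdm5a shares 251 exon bases with Ccdc77 on the opposite strand, and the level of Ccdc77 was 8.94.

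Kdm5b had rlog values of 13.02, 13.12, 12.95, 13.24 and 13.01 in withdrawn embryos, against 13.02, 13.03, 12.95, 13.06 and 12.96 in supplied embryos. Withdrawn embryos 2 and 4 stood above every supplied embryo, and the other 3 lay within or just under the supplied range. The change was 0.065 (SE 0.0536, 95% interval from -0.049 to 0.178), and 0.022 without withdrawn embryo 4.

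Kdm5c lies on the X chromosome and is known to escape X inactivation in the mouse. It had rlog values of 12.51, 12.60, 12.49, 12.60 and 12.62 in withdrawn embryos, against 12.47, 12.55, 12.47, 12.54 and 12.51 in supplied embryos. In withdrawn embryos 2, 4 and 5 it stood above every supplied embryo. The change was 0.057 (SE 0.0429, 95% interval from -0.033 to 0.148).

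The KDM6 enzymes remove methyl groups from H3K27, and those groups are laid down by the Polycomb complex that holds the EZH methyltransferases. Kdm6a, also X-linked and an escape gene, had rlog values of 11.07, 11.01, 11.002, 11.03 and 10.95 in withdrawn embryos, against 10.97, 10.99, 11.03, 11.10 and 11.11 in supplied embryos. Supplied embryos 4 and 5 were the highest and withdrawn embryo 5 was the lowest. The change was -0.028 (SE 0.0433, 95% interval from -0.120 to 0.063), and -0.0097 without supplied embryo 5.

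Kdm6b encodes the H3K27 demethylase best known as a gene induced by stimuli such as inflammation. It had rlog values of 12.83, 13.10, 13.07, 13.10 and 13.06 in withdrawn embryos, against 13.00, 13.00, 13.06, 13.05 and 13.00 in supplied embryos. In 4 of 5 withdrawn embryos it was above every supplied embryo, while withdrawn embryo 1 was below all 9 others. Of these 4, withdrawn embryo 5 at 13.057 was nearly tied with the highest supplied embryo at 13.056. The change over all embryos was 0.0093 (SE 0.0524), and without withdrawn embryo 1 it was 0.059 (limma adjusted p = 0.857). Kdm6b shares 286 exon bases with Kdm6bos, an antisense transcript with no row.

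The mean of 11 immediate early genes, which respond within minutes to handling of cells, set 2 libraries apart, withdrawn embryo 3 at 11.24 and supplied embryo 4 at 11.23. The other 8 embryos lay between 9.53 and 10.54, and 8 of the 11 genes had a change above 0. Kdm6b was at 13.07 in withdrawn embryo 3 and 13.05 in supplied embryo 4, both within the range of the other embryos. Because the libraries form separate groups in this measure, no correlation is given.

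The KDM2 enzymes act on H3K36 and carry a CXXC domain that binds unmethylated CpG-rich DNA. Kdm2a had rlog values of 12.20, 12.50, 12.39, 12.46 and 12.41 in withdrawn embryos, against 12.39, 12.34, 12.39, 12.45 and 12.36 in supplied embryos. Withdrawn embryo 1 was the lowest of all and withdrawn embryo 2 the highest, so the supplied range lay inside the withdrawn one. The change was 0.0071 (SE 0.0531, 95% interval from -0.105 to 0.119), with its direction turned by quantile normalization.

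Kdm2b, which also brings a variant Polycomb complex to CpG islands, had rlog values of 11.83, 11.98, 11.69, 11.84 and 11.93 in withdrawn embryos, against 11.91, 11.88, 11.99, 11.95 and 11.80 in supplied embryos. Withdrawn embryo 3 was the lowest and supplied embryo 3 the highest. The change was -0.050 (SE 0.0551, 95% interval from -0.167 to 0.066), and -0.0093 without withdrawn embryo 3. Kdm2b shares 627 exon bases with Rnf34, whose level was 9.62, and 199 with A930024E05Rik, both on the opposite strand, and 124 with Gm44574, a transcript of the same strand with no row.

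**Figure D2:**
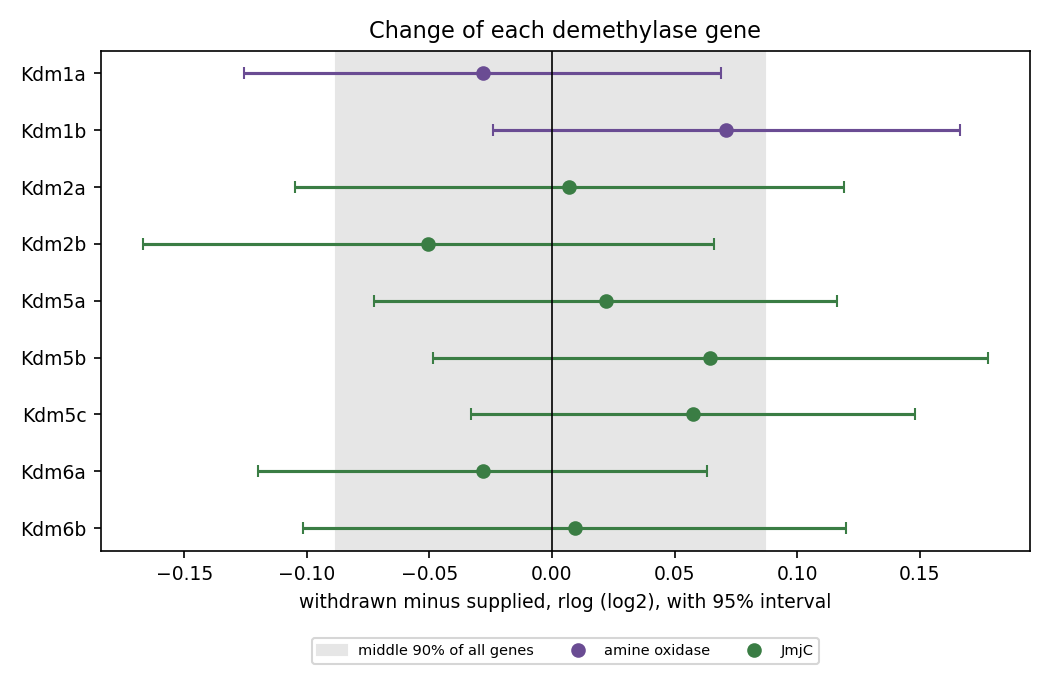
The horizontal axis is the rlog (log2) difference, withdrawn minus supplied, of each gene, drawn as a point with its 95% interval, with amine oxidases and JmjC enzymes in different colours and a grey band for the middle 90% of all genes. All 9 intervals include 0, and all 9 points lie inside the band from -0.088 to 0.087.

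Amine oxidase and JmjC transcripts were next compared as classes, without a test, since the members were chosen with results of these data known. The mean change was 0.021 for the 2 amine oxidases, of which 1 was above 0, and 0.012 for the 7 JmjC genes, of which 5 were above 0 but only 2 with quantile normalization. The median change of all genes was 0.00021. The amine oxidase mean minus the JmjC mean was -1.67, -1.79, -1.74, -1.79 and -1.76 rlog units in withdrawn embryos 1 to 5, and -1.77, -1.70, -1.77, -1.75 and -1.79 in supplied embryos 1 to 5. The distance between the classes was thus alike in all embryos, and withdrawn embryo 1 had the smallest. These means had no correction for transcript length, so the size of the distance does not compare transcript amounts between the classes. The difference between the class changes was 0.0098, against a pooled SD between embryos of 0.0411, and it turned to -0.0099 without withdrawn embryo 1. Within each class single genes lay further apart than the classes did, since Kdm1a and Kdm1b had changes of -0.028 and 0.071.

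Levels of different genes were compared after subtracting the log2 of the longest annotated transcript length in kb. On this scale Kdm1a stood at 10.35 ± 0.0645 in withdrawn and 10.38 ± 0.0655 in supplied embryos, and Kdm6b at 10.30 ± 0.114 in withdrawn and 10.29 ± 0.0286 in supplied embryos. The gap of 0.073 between these top levels was no larger than the SD of Kdm6b over the 10 embryos, 0.0783. Kdm5b followed at 9.94 ± 0.114 in withdrawn and 9.88 ± 0.0456 in supplied embryos. Kdm5c at 9.88 ± 0.0583 in withdrawn and 9.82 ± 0.0392 in supplied embryos did not differ from Kdm5b beyond their spread (gap 0.064). Below them came Kdm2b (9.51 over all embryos), Kdm2a (9.29), Kdm5a (8.83) and Kdm6a (8.46), each further from the next than its SD. Kdm1b was the lowest, at 6.87 ± 0.0445 in withdrawn and 6.80 ± 0.0669 in supplied embryos, with the uncertainty of its overlap with Dek.

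The order of the genes above Kdm6a and Kdm1b depended on the length used. Kdm5a at 9.94 lay just above Kdm2b at 9.91 by coding length, the reverse of their order by transcript length. Per kb of coding sequence Kdm5b came first at 10.82 and Kdm6b next at 10.73, followed by Kdm2a at 10.59 and Kdm1a at 10.58, while Kdm6a and Kdm1b stayed last at 8.93 and 7.84. The read counts behind the table rest on another annotation and build than these lengths.

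Levels per length were also compared between paralogues of the same family. Kdm1a exceeded Kdm1b by 3.48 ± 0.0904 in withdrawn and 3.58 ± 0.0955 in supplied embryos, on the log2 scale. This is 11.6-fold over all embryos by transcript length and 6.65-fold by coding length. The overlap of Kdm1b with Dek makes both folds uncertain. Kdm6b exceeded Kdm6a by 1.85 ± 0.148 in withdrawn and 1.82 ± 0.0597 in supplied embryos, or 3.57-fold by transcript length and 3.47-fold by coding length. Kdm5b exceeded Kdm5a by 1.10 ± 0.110 in withdrawn and 1.06 ± 0.0607 in supplied embryos, or 2.12-fold by transcript length and 1.84-fold by coding length. Between Kdm2b and Kdm2a the order turned with the length, at 0.22 for Kdm2b minus Kdm2a by transcript length and -0.68 by coding length.

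**Figure D3:**
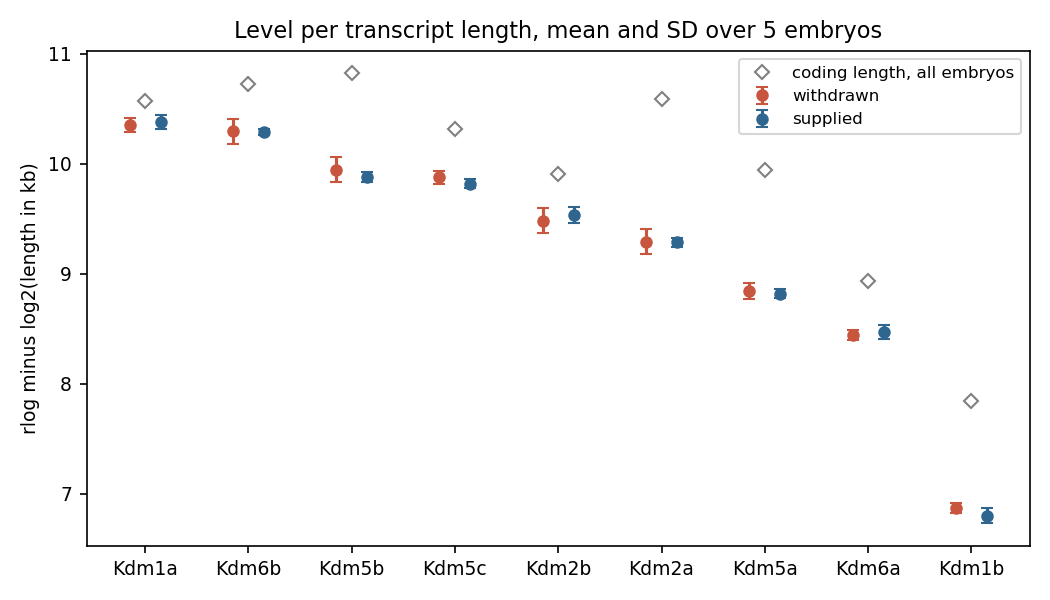
The plot gives the level of each gene per length, as rlog minus log2 of the transcript length in kb, with the mean and SD over 5 withdrawn and 5 supplied embryos and an open diamond for the coding length over all 10 embryos. Genes run from Kdm1a at 10.37 over all embryos to Kdm1b at 6.83, and withdrawn and supplied points nearly coincide in each gene.

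The withdrawn embryos were more spread out than the supplied ones most of all in Kdm6b, Kdm2a and Kdm5b. The SD of Kdm6b was 0.114 in withdrawn and 0.0286 in supplied embryos, a ratio of 3.97 that lay at percentile 99.1 of all genes. The ratio was 2.67 (percentile 96.3) for Kdm2a, with SDs of 0.116 in withdrawn and 0.0434 in supplied embryos. It was 2.49 (percentile 95.5) for Kdm5b, with 0.114 in withdrawn and 0.0456 in supplied embryos. The other ratios were 2.00 for Kdm5a, 1.49 for Kdm2b and Kdm5c, 0.99 for Kdm1a, 0.72 for Kdm6a and 0.67 for Kdm1b. Without withdrawn embryo 1 the SD of the withdrawn embryos was 0.0228 for Kdm6b and 0.0501 for Kdm2a, so the wide spread of those genes rests on that embryo. For Kdm5b it was 0.128. Withdrawn embryos had the larger SD in 6 of the 9 genes, against 47.5% of all genes, and no test of this spread was made.

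Pooled over both groups, the residual SD of the 9 genes ran from 0.0497 for Kdm5c to 0.0949 for Kdm2b, where the median of all genes was 0.0730. Kdm5c lay at percentile 16.9 of all genes and Kdm2b at percentile 76.7.

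Across embryos Kdm2a and Kdm6b deviated from their group means together. Both were lowest in withdrawn embryo 1, with deviations of -0.192 for Kdm2a and -0.200 for Kdm6b, and above the group mean in withdrawn embryos 2 and 4. Pearson's r over the 10 embryos was 0.94 and Spearman's rho 0.71 (exact permutation within groups, two-sided, p = 0.00653 and 0.0421). Over the 36 pairs of genes the adjusted p was 0.235 for r and 0.615 for rho, so the pair did not pass. Without the 2 embryos farthest from the median of Kdm2a, r was 0.75, and without withdrawn embryo 1 alone it was also 0.75 (exact permutation p = 0.0493, adjusted p = 0.548).

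Kdm5a and Kdm6a came next, with r of 0.67 and rho of 0.71 (exact permutation p = 0.0254 and 0.0149, adjusted p = 0.458 and 0.535), and r of 0.58 without the 2 embryos farthest from the median of Kdm5a. In all, 0 of 36 pairs passed and 2 had an unadjusted p under 0.05, by r as by rho. The median r was 0.24, and 25 of 36 pairs were above 0. When group means were not removed, the embryos were also shuffled over both groups (100000 random orders) and not within groups. Kdm2a with Kdm6b then passed (r 0.94, permutation over both groups p = 0.00041, adjusted p = 0.0148). Its r was 0.94 in both forms, so the lower p came with the other way of shuffling and not with a larger r. Without withdrawn embryo 1, Kdm5a with Kdm6b passed (r 0.85, exact permutation adjusted p = 0.0125), whereas over all embryos its r was -0.47. No other pair passed with any of the 10 embryos left out in turn. That adjusted p covers the 36 pairs but not the 10 choices of embryo. In both groups embryos 2 and 3 have titles with the same first number, so the 10 embryos may not be fully independent. Over all genes, deviations of withdrawn embryos 2 and 3 had an r of 2.8e-05, the highest of the withdrawn pairs, whose median was -0.293. For supplied embryos 2 and 3 the r was 0.138, where supplied pairs had a median of -0.258 and a maximum of 0.208. The p-values treat these embryos as independent.

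**Figure D4:**
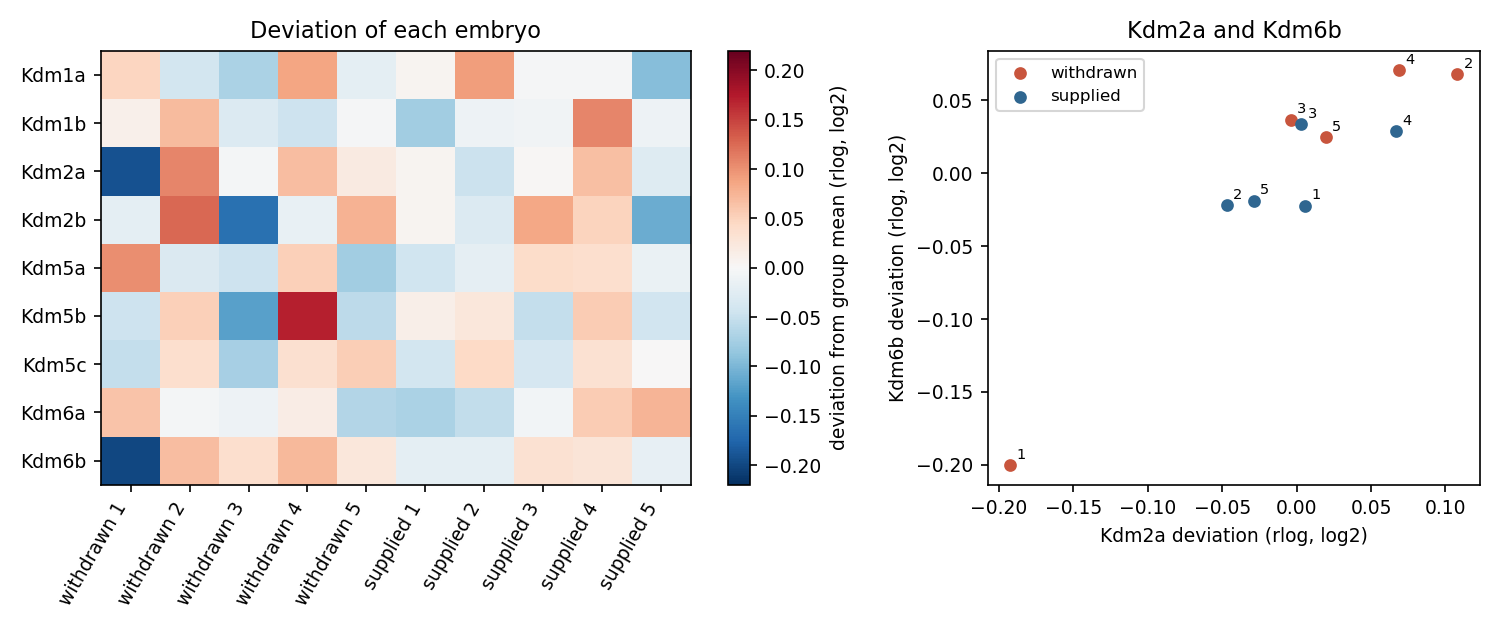
The left panel shows, as colour, the deviation of each embryo from its group mean (rlog, log2) for the 9 genes, and the right panel plots the deviations of Kdm6b against those of Kdm2a for 5 withdrawn and 5 supplied embryos, numbered by replicate. Withdrawn embryo 1 stands apart at -0.192 for Kdm2a and -0.200 for Kdm6b.

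For each demethylase the genes with the most similar deviations over the 10 embryos were listed from the other 13569, as a description. For Kdm2a these were Zmiz1 (r 0.97, rho 0.85), Nup188 (r 0.96, rho 0.95) and Luzp1 (r 0.96, rho 0.95), and 39 genes reached an r of 0.9. For Kdm6b they were Zc3h7b (r 0.97, rho 0.84), Ssh1 (r 0.96, rho 0.81) and Rrp1b (r 0.93, rho 0.85), with 20 genes at an r of 0.9 or above. Kdm2a and Kdm6b were both lowest in withdrawn embryo 1, and these lists were not made again without it. Nearest to Kdm1a was Apex1 (r 0.95), which encodes a DNA base excision repair endonuclease. Nearest to Kdm1b was Adamtsl1 (r 0.95), to Kdm2b Adamts9 (r 0.94), to Kdm5a Scfd1 (r 0.91), to Kdm5b Trpc4ap (r 0.94), to Kdm5c Ap2b1 (r 0.93) and to Kdm6a Galntl4 (r 0.94). These are the highest of many correlations over the same libraries, so they carry no p.

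The enzymes that write the same marks and the protein partners of the demethylases were read from the same fit. Of 54 distinct genes in 8 lists 0 passed by limma. An unadjusted p under 0.05 was found in 2, Phf21a and Rybp, which is 3.7% of the 54 and below the 5.3% of all genes, so their values are given as a description only. H3K4 methyltransferases and their shared subunits had 12 of 13 genes in the table, 8 above and 4 below 0, with a median change of 0.041. Of these the cofactor gene Hcfc1 was at 0.080, Ash2l, a core subunit, at -0.059, and Mll3, now named Kmt2c, at 0.060 (limma adjusted p between 0.974 and 0.979). The H3K36 methyltransferases had 5 of 5 genes above 0 with a median change of 0.031, or 3 of 5 with quantile normalization, which turned Setd2 and Whsc1. These were Ash1l at 0.058, Nsd1 at 0.040, Setd2 at 0.031, Whsc1l1 at 0.014 and Whsc1 at 0.013. The H3K27 methyltransferase subunits had 2 genes above and 2 below 0, with Ezh1 at 0.053, Eed at -0.025 and Suz12 at 0.020.

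Among the 10 partner genes of KDM1A, 5 were above and 5 below 0, with a median change of 0.0030, and 4 above with quantile normalization. Phf21a, whose protein binds unmethylated H3K4 in the CoREST complex, had rlog values of 11.89, 11.92, 11.80, 11.91 and 11.79 in withdrawn embryos, against 11.75, 11.79, 11.78, 11.78 and 11.76 in supplied embryos. All 5 withdrawn embryos lay above all 5 supplied ones, at withdrawn embryo 5 by under 0.01, and Phf21a was the 1 such gene of the 54, where 0.81% of all genes were such. The change of 0.089 (SE 0.0408) did not pass (limma unadjusted p = 0.0447, adjusted p = 0.931). Hmg20b was at -0.061 and Rcor2, a CoREST subunit, at -0.049. Glyr1, which encodes a nucleosome-binding cofactor of KDM1B, was at -0.024.

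Of the 9 partner genes of KDM2B in its variant Polycomb complex, 5 were above and 4 below 0, with a median change of 0.00074, and 4 above with quantile normalization. Rybp, an accessory subunit, had rlog values of 11.26, 11.34, 11.27, 11.36 and 11.19 in withdrawn embryos, against 11.12, 11.22, 11.19, 11.23 and 11.13 in supplied embryos. In 4 of 5 withdrawn embryos it exceeded every supplied embryo, and the change of 0.10 (SE 0.0443) did not pass (limma unadjusted p = 0.0311, adjusted p = 0.928). Bcor was at 0.080 and Pcgf1, the subunit that defines the complex, at -0.071. Around KDM6A in the complexes of KMT2C and KMT2D, 2 of 5 partner genes were above 0 (Mll2, now named Kmt2d, at 0.066 and Mll3) and 3 below, among them Ncoa6 at -0.078, and the median was -0.023.

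Other JmjC histone demethylases had 10 of 12 genes in the table, 7 above and 3 below 0, with a median change of 0.024, or 5 and 5 with quantile normalization. Kdm3b was at 0.081, Phf8 at 0.062 and Kdm4b at -0.059 (limma adjusted p between 0.960 and 0.978). The Y-linked relatives Kdm5d and Uty have no row. Of 6 X-linked genes that escape silencing, 3 were above and 3 below 0. The list includes Kdm5c and Kdm6a, at 0.057 and -0.028. Xist, the RNA that silences the inactive X, was at 0.16 with a 95% interval from -0.082 to 0.405.

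**Figure D5:**
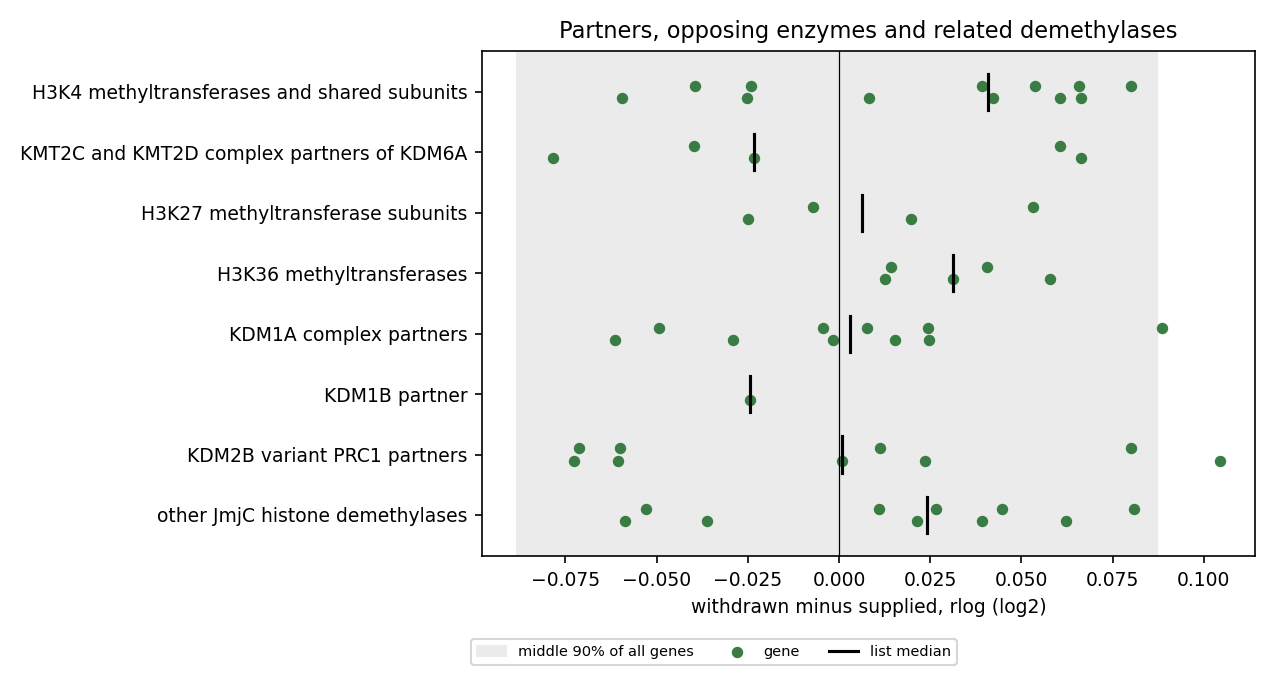
The horizontal axis is the rlog (log2) difference, withdrawn minus supplied, of each gene in 8 lists of writers, partners and related demethylases, with a bar at each list median and a grey band for the middle 90% of all genes. Rybp at 0.10 and Phf21a at 0.089 lie just above the band and all other genes inside it.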

How the data were processed

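The authors deposited 1 table of gene-level regularised log2 (rlog) values for 10 samples. Trim Galore 0.4.0, TopHat2 2.1.1, DESeq2 1.20.1 and the mm9 build are named in the submitters' processing notes. The counter, the annotation and the use of strand are not given in the sources used here. Each library was made from 2 ng of RNA with a pico-input kit, per the labels' protocols.

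Withdrawn and supplied embryos were compared in each of the 13578 genes by limma 3.58.1 (R 4.3.3), with a variance trend, no covariate and Benjamini-Hochberg adjustment over all genes at 0.05. No filter was applied. Pairs of genes were compared by exact permutation within groups (14400 orders, smallest possible p 6.94e-05) in Python 3.11.15 with SciPy 1.17.1. Transcript and coding lengths and overlaps came from GENCODE M21 (GRCm38), whose build differs from the table's, so no coordinates are given. The tests were tried on simulated normal values drawn independently for each embryo, so embryos that share a litter were not simulated.

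The members and the 18 gene lists were chosen with earlier results of these data known. Genes named are the 9 members, up to 3 genes of smallest p in a list and the 3 genes nearest to a member, of which some are given. Outside this rule, Whsc1l1 and Whsc1 were named after their values were seen, and Dnd1 as a germ cell marker with a row. Ccdc77, Dek, Rnf34, A930024E05Rik, Gm44574 and Kdm6bos were named because they overlap a member. The study calls the replicates biological but does not state which embryos shared a litter, and p-values reflect only the variation among the 10 samples. Other settings were another filter, variance estimate, scaling, weights or covariate, a replicate block, averaged embryos, and each embryo left out in turn. The last was applied to the pairs of genes after seeing the data.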

Additional observations from a re-analysis of the deposited data

Results flagged for a closer look

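Kdm6b in withdrawn embryo 1, at an rlog value of 12.83, was far below the other 4 withdrawn embryos, which lay between 13.06 and 13.10. Its gap to the nearest of them was 0.831 of the group's range, above the critical value of 0.71 for 5 samples. This was 1 of 20 group checks, and chance alone flags about 1 in 20 such groups.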

How the results depend on the processing

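By limma, 0 of the 9 demethylase genes passed under any of the 20 other settings of the gene fits, and Kdm1a, Kdm1b, Kdm2b, Kdm5b, Kdm5c and Kdm6a kept their direction in all of them. Quantile normalization turned Kdm2a to -0.011, Kdm5a to -0.0045 and Kdm6b to -0.014, averaging embryos of 1 title number turned Kdm2a to -0.011 and Kdm6b to -0.0023, and the germ cell mean as covariate turned Kdm5a to -0.0095. With each embryo left out in turn, the change ran from -0.020 to 0.055 for Kdm2a, from -0.0036 to 0.041 for Kdm5a and from -0.0084 to 0.059 for Kdm6b. It ran from -0.052 to -0.0054 for Kdm1a, 0.052 to 0.098 for Kdm1b, -0.082 to -0.0093 for Kdm2b, 0.022 to 0.094 for Kdm5b, 0.044 to 0.076 for Kdm5c and -0.046 to -0.0097 for Kdm6a. The difference between the class changes ran from -0.0099 to 0.024 with embryos left out. The cause of these turns was not tested.

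The count of genes past the threshold, 3 of 13578, was 1 with a mean minimum of 7 (10977 genes), with no variance trend, with quantile normalization and with averaged embryos. It was 5 with robust variance or array weights, 12 with the immediate early mean as covariate and 0 with the germ cell mean. The germ cell mean itself was 4.91 ± 0.0361 in withdrawn and 4.95 ± 0.0213 in supplied embryos. As a covariate it therefore takes up part of the difference between the groups, and what the count of 0 rests on was not tested. Leaving out 1 embryo gave counts from 0 to 4, with 0 without supplied embryo 1 or withdrawn embryo 5 and 1 without withdrawn embryo 2 or withdrawn embryo 4. Embryos of the same replicate number did not deviate together (correlations over all genes from -0.364 to 0.172), and with the replicate number as a block 2 genes passed and none of the 9 (limma adjusted p = 0.999 for each).

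Per kb of coding sequence the levels were 10.58 for Kdm1a, 7.84 for Kdm1b, 10.59 for Kdm2a, 9.91 for Kdm2b, 9.94 for Kdm5a, 10.82 for Kdm5b, 10.32 for Kdm5c, 8.93 for Kdm6a and 10.73 for Kdm6b. The count of gene pairs past the threshold, 0 of 36, was 1 without removal of group means and 0 to 1 with embryos left out. Without removal of group means the embryos were shuffled over both groups, so that count rests on another permutation. Depth is unknown, and the rlog scale understates changes, which limits what weakly expressed genes can show.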
